A study of Rattus norvegicus with 18 samples.

Results

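The genes described here are those for the subunits and assembly factors of mitochondrial complex I whose symbol begins with Nduf, in the liver of rats on 3 diets. They were chosen by name only: of 14217 genes on the array, each represented by 1 probe set, 42 had such a symbol in the platform annotation. These 42 genes had 46 probe sets, and where a gene had more than 1 the probe set with the highest mean was used. A further 2 probe sets named an Nduf gene together with another gene and were left out. The animals were adult male Sprague Dawley rats kept free of specific pathogens, fed for 8 weeks and fasted overnight before the liver was taken. The chow group ate chow, the HFD group a high fat diet, and the HFD+PE group the same high fat diet plus an extract of pomegranate skin, dosed at 150 mg per kg per day. The labels call the liver normal in the chow and HFD+PE groups and fatty in the HFD group, and they do not describe the make-up of the diet or of the extract. Each group had 6 arrays.

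Complex I takes electrons from NADH, passes them through a flavin and a chain of iron-sulfur clusters to ubiquinone, and pumps protons across the inner mitochondrial membrane. Its catalytic core is built from proteins of both the nuclear and the mitochondrial genome, and the Nduf genes give the nuclear part: core subunits that carry the redox centres, accessory subunits around them, and assembly factors that join the parts but are absent from the finished enzyme. In the fasted liver much of the NADH it uses comes from the oxidation of fatty acids, and the fatty liver is known for altered mitochondrial respiration.

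Nuclear genes of the respiratory chain are known targets of NRF-1, of the ETS factor GABP, of YY1 and of estrogen-related receptors. RefSeq promoter windows of the GRCr8 build, from 250 bases before to 50 bases after the gene's start, were matched for 40 of the 42 genes; Ndufa8 and Ndufb9 had no entry. Each motif was searched on both strands. The letters of NRF-1, GCGCA and GCGC with any 1 base between them, were in 8 of 40 windows, against 4.3% of all 33469 promoters and 5.7% of the 21842 promoters of protein-coding genes. The letters AAGATGGC of YY1 were in 10 of 40 windows, against 3.2% of all promoters and 3.7% of those of protein-coding genes. The letters CCGGAAG of the ETS family were in 9 windows (22.5%, against 8.7% of all and 10.7% of protein-coding promoters). AAGGTCA of the estrogen-related receptors was in 3 (7.5%, against 4.6% and 3.8%). These are matches of letters, which show neither binding nor regulation. At least 1 of the 4 motifs was in 24 of the 40 windows. The share of all promoters with at least 1 was not counted, so that number has no comparison. No core subunit's window held the NRF-1 letters, but only 6 core subunits were measured, so no pattern by role is read from this. The stretches with these letters that lie wholly before the start are printed to show the motif in its setting. They belong to accessory subunits and assembly factors. They run 5′ to 3′ on the gene's own strand, with the matched letters in capitals; capitals that read otherwise than the motif are its reverse complement.
Ndufa5: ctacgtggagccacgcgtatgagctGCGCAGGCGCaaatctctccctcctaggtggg
Ndufa11: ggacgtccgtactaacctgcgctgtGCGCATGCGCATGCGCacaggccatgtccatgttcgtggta
Ndufa12: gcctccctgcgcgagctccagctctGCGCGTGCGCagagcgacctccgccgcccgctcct
Ndufs6: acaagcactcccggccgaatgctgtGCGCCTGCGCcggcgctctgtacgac
Ndufv3: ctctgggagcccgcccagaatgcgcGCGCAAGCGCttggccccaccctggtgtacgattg
Ndufaf4: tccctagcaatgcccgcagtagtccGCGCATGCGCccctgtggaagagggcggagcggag
Ndufaf5: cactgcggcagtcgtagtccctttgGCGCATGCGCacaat
On GRCr8 they lie at chr4:53971236-53971292 on the minus strand for Ndufa5, and on the plus strand at chr9:1637492-1637557 for Ndufa11, chr7:30658179-30658238 for Ndufa12, chr1:31797349-31797399 for Ndufs6, chr20:9613722-9613781 for Ndufv3, chr5:43401612-43401671 for Ndufaf4 and chr3:147961572-147961611 for Ndufaf5. The match in Ndufa11 is a pair that overlaps. In Ndufb4 the NRF-1 letters lie just past the start, and that stretch is not shown.

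Not every array held a separate animal, as far as the values tell. Within chow 3-4, HFD 1-2 and HFD+PE 3-4, which are pairs of arrays, the number of probe sets more than 2 log2 units apart was 0, where the other 150 pairs had 18 to 109. Both arrays of such a pair were averaged and taken as a single animal, which left n = 5 in each group. This is an inference from that count, since by their labels the 18 arrays are all biological replicates. Another measure set only some of these pairs apart: the SD of the differences between 2 arrays was 0.117 for HFD 1-2 and 0.215 for chow 3-4, but 0.26 for HFD+PE 3-4, which was also the lowest value among the other pairs. With all 18 arrays kept as separate samples, 0 of 42 Nduf genes passed the test used below in each comparison. The arrays also fell into 2 sets by the hybridization controls added to each sample, with 5 arrays high (3 chow, 0 HFD and 2 HFD+PE) and 13 low. The pairs chow 3-4 and HFD+PE 3-4 each held 1 array of the high and 1 of the low set. Levels below are log2 signals, on which 1 unit is a doubling, and differences are in the same unit with their standard error (SE). Signals were deposited to 1 decimal. Precision is limited by that rounding and by how few animals there were. The mean signal of the 9 hepatocyte markers measured was 12.93 to 13.38 in the 15 animals, and that of 5 skeletal and cardiac muscle markers 2.98 to 3.26; these are signals of different probe sets, given as a description. In RNA from whole liver, fewer cells of a type and less RNA per cell cannot be told apart.

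Most Nduf probe sets gave a bright signal in all 15 animals. The mean over animals was above 9 for 33 of the 42 genes. Over all 14217 genes, with probe sets chosen by the same rule, the median of the means over the 18 arrays was 6.62. Array medians over all probe sets were 5.4 to 5.5. The share of all genes above 9 was not counted. Signals of different probe sets cannot be set against each other as amounts of RNA, since each set binds with its own strength, so groups are compared below only within a gene, and the order of brightness serves only to choose examples. The brightest probe set was that of Ndufa1, a small X-linked subunit of the membrane arm. Its signals in the chow animals 1, 2, 3-4, 5 and 6 were 12.0, 11.9, 12.05, 12.0 and 12.0, those in HFD animals 1-2, 3, 4, 5 and 6 were 12.0, 11.9, 12.3, 12.3 and 12.2, and those in HFD+PE animals 1, 2, 3-4, 5 and 6 were 11.8, 12.1, 12.25, 12.2 and 12.0. The animal order is the same in all lists of values below. The second brightest was that of Ndufb9, a LYR-motif subunit of the membrane arm, at 11.92 ± 0.13 in chow, 11.90 ± 0.12 in HFD and 11.86 ± 0.18 in HFD+PE (mean ± SD, n = 5 here and below). In both genes the 3 groups overlapped.

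The dimmest Nduf probe set belonged to Ndufa4l2, a paralog of Ndufa4 known as a hypoxia-induced gene. It read 4.4, 4.3, 4.15, 4.1 and 4.4 in chow, 4.4, 4.3, 4.6, 4.3 and 4.5 in HFD, and 4.1, 4.4, 4.3, 4.5 and 4.4 in HFD+PE, and the 3 groups overlapped. No test against background was made for it. Ndufa4 itself, which began as a complex I subunit in name but is now assigned to cytochrome c oxidase, was at 11.59 ± 0.10, 11.64 ± 0.11 and 11.53 ± 0.14 in the 3 groups. Next above Ndufa4l2 in brightness was Ndufaf7, an assembly factor, at 5.69 ± 0.15, 5.59 ± 0.15 and 5.63 ± 0.14.

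By role, the 3 measured core subunits of the NADH-oxidizing tip were Ndufv1, which binds NADH and flavin, Ndufv2 and Ndufs1, which hold iron-sulfur clusters. The 3 of the ubiquinone-reducing part were Ndufs3, Ndufs7 and Ndufs8. Ndufv1 stood at 10.37 ± 0.12 in chow, 10.38 ± 0.11 in HFD and 10.41 ± 0.17 in HFD+PE. Ndufs7, which carries the last cluster before ubiquinone, stood at 10.71 ± 0.05, 10.82 ± 0.04 and 10.77 ± 0.16. For Ndufv1 and Ndufs7 the means of the groups lay within 0.11 of each other.

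The other measured members were 28 accessory subunits, 6 assembly factors, and Ndufa4 with its paralog. Among the accessory subunits, Ndufab1, which is also the mitochondrial acyl carrier protein, was at 10.49 ± 0.19 in chow, 10.56 ± 0.18 in HFD and 10.49 ± 0.19 in HFD+PE. Ndufa13, known also as GRIM-19, was at 10.25 ± 0.12, 10.30 ± 0.07 and 10.27 ± 0.18. Ndufa9, a member of the short-chain dehydrogenase family at the joint of the 2 arms, was at 10.15 ± 0.11, 10.16 ± 0.09 and 10.19 ± 0.12. Ndufb3 of the membrane arm had the smallest spread within groups (SD 0.0827), at 11.73 ± 0.10, 11.74 ± 0.05 and 11.76 ± 0.09.

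The largest spread within groups was in Ndufb8 and Ndufb6, both of the membrane arm. Ndufb8 read 6.8, 6.3, 6.75, 6.6 and 6.1 in chow, 6.45, 6.5, 5.9, 6.7 and 6.9 in HFD, and 6.1, 6.5, 6.5, 6.3 and 6.4 in HFD+PE (SD within groups 0.294). Its highest and lowest animals, HFD 6 and HFD 4, were in the same group. Ndufb6 read 9.6, 9.3, 9.85, 9.9 and 9.5 in chow, 9.7, 9.4, 9.5, 9.8 and 10 in HFD, and 9.2, 9.9, 9.85, 9.7 and 9.6 in HFD+PE (SD within groups 0.256). Over the 42 genes the median SD within groups was 0.147, and over all 14217 genes it was 0.168.

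**Figure D1:**
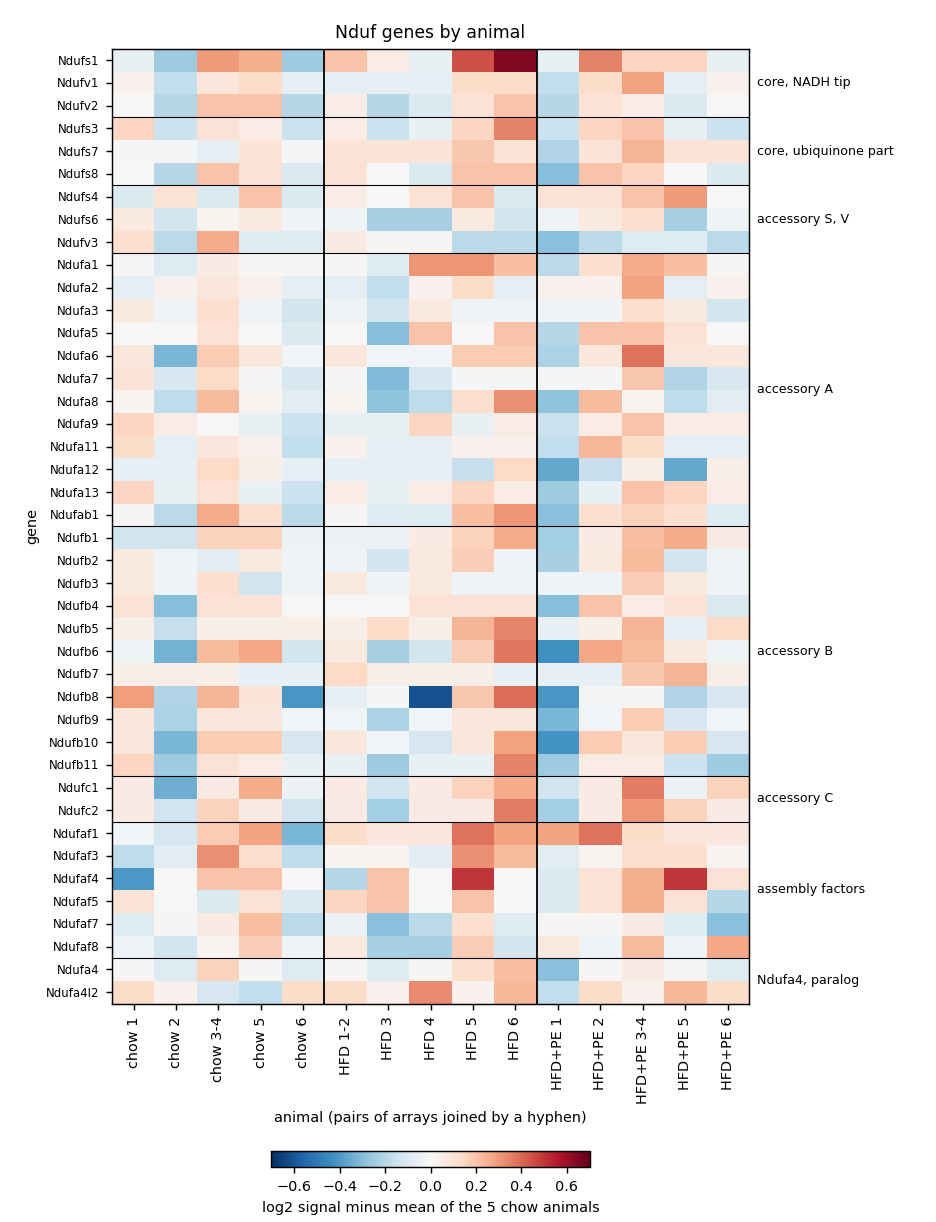
Log2 signal of the 42 Nduf genes (rows, ordered by role) in the 15 animals (columns), as the difference from the mean of the 5 chow animals; red is higher and blue lower. Whole columns are pale red or blue, as in HFD+PE 1, where 39 of 42 genes were below their group mean, while no block of rows separates the 3 groups.

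Complex I transcripts were first compared between the HFD and chow livers, for the effect of the diet alone. None changed by the test used: in limma, 0 of 42 Nduf genes had an adjusted p under 0.05 (0.0% of all genes did), the smallest being 0.675, and 0 of 42 had an unadjusted p under 0.05, where 7.65% of all 14217 genes had. In none of the 42 were the animals of the 2 groups apart, against 0.521% of all genes. Of the 42 differences, 29 were above 0, 12 below and 1 equal to 0 (49.9% of all genes were above 0), with a median of 0.05 against 0.00 over all genes and a range from -0.11 to 0.26.

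The widest difference was that of Ndufs1, the largest iron-sulfur subunit of the NADH-oxidizing tip. It read 9.0, 8.8, 9.35, 9.3 and 8.8 in chow and 9.25, 9.1, 9.0, 9.5 and 9.7 in HFD. HFD 5 and HFD 6 lay above every chow animal, while the other 3 lay within the chow range. The difference was 0.26 (SE 0.14; unadjusted p = 0.0866, limma adjusted p = 0.690). Ndufb5 of the membrane arm had the smallest p, with 11.1, 10.9, 11.1, 11.1 and 11.1 in chow and 11.1, 11.2, 11.1, 11.3 and 11.4 in HFD. HFD was here equal to or above the highest chow animal in all 5 animals, and the difference was 0.16 (SE 0.08; unadjusted p = 0.0725, limma adjusted p = 0.675).

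On the lower side stood Ndufs6, a zinc-binding subunit, and the assembly factor Ndufaf7. Ndufs6 read 10.8, 10.6, 10.75, 10.8 and 10.7 in chow and 10.7, 10.5, 10.5, 10.8 and 10.6 in HFD, a difference of -0.11 (SE 0.08; limma unadjusted p = 0.205). Ndufaf7 read 5.6, 5.7, 5.75, 5.9 and 5.5 in chow and 5.65, 5.4, 5.5, 5.8 and 5.6 in HFD, a difference of -0.10 (SE 0.10; limma unadjusted p = 0.313). Its second probe set, which was dimmer, differed by 0.05, the opposite sign. In both genes the groups overlapped.

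By role, all 6 core subunits were above 0 (median 0.08), as were 17 of 28 accessory subunits (median 0.01; 10 below and 1 at 0) and 4 of 6 assembly factors (median 0.10). The precision bounds what could have been missed: for 41 of the 42 genes the 95% interval of the difference, taken gene by gene, lay within 0.5 log2 units either way, which is 1.41-fold, as it did for 86.1% of all genes. The exception was Ndufs1, whose interval ran from -0.04 to 0.56. The median of 0.05 was 0.00 without chow 2 and 0.01 without HFD 6, and it was 0.00 with arrays of the low hybridization control set only.

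**Figure D2:**
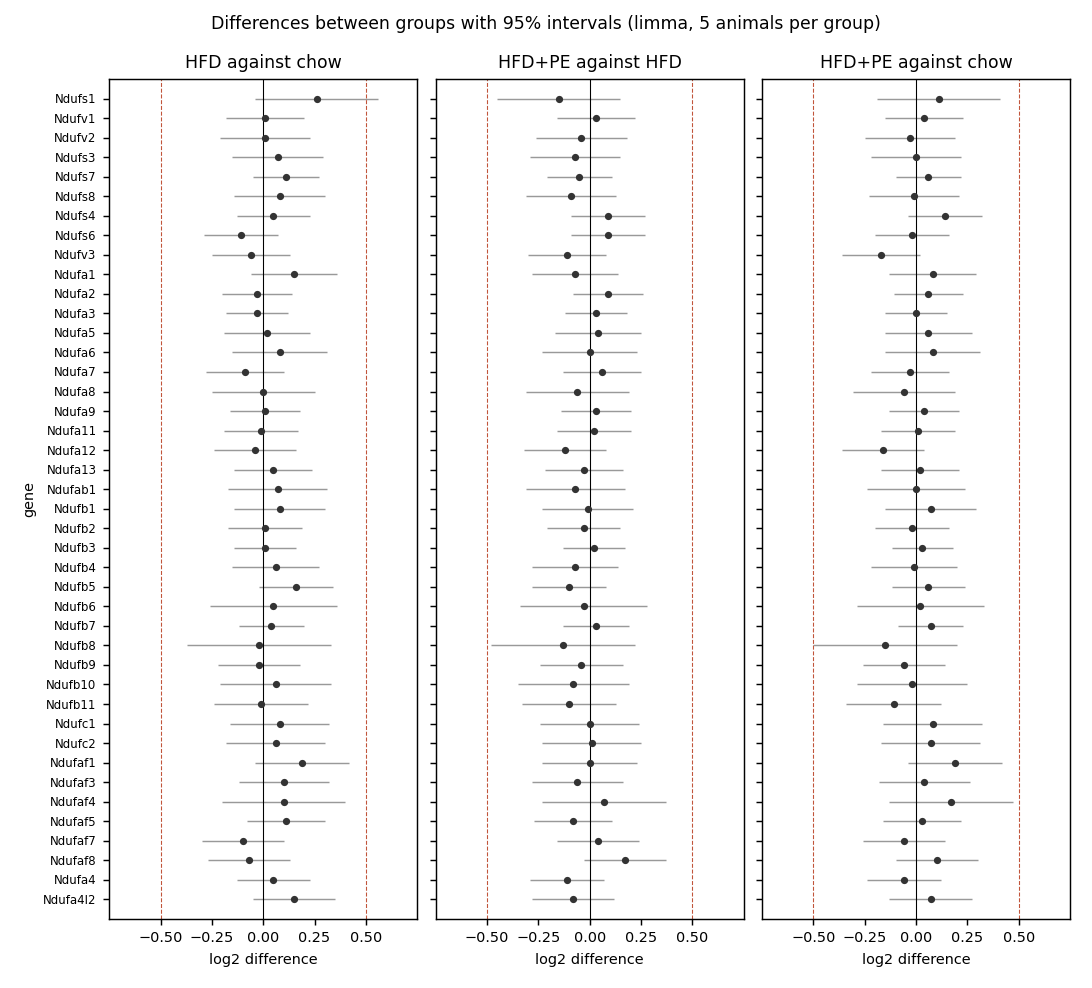
Log2 differences between groups for the 42 Nduf genes with 95% intervals from limma (points and bars; 5 animals per group), 1 panel per comparison; dashed lines mark 0.5 log2 units either way. Every interval includes 0, and those of Ndufs1 in HFD against chow and of Ndufb8 in HFD+PE against chow reach the dashed lines.

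The effect of the extract on top of the diet was read from HFD+PE against HFD. Again 0 of 42 genes passed in limma (0.0% of all genes did), with a smallest adjusted p of 0.993, and 0 of 42 had an unadjusted p under 0.05, against 2.7% of all genes. The animals overlapped in all 42 genes; they were apart in 0.134% of all genes. Differences ran from -0.15 to 0.17 with a median of -0.03, 15 above 0, 24 below and 3 at 0 (49.2% of all genes were above 0, and their median was 0.00). This comparison and the one before share the HFD animals, so that the signs of their differences are not independent.

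Ndufaf8, the partner of the assembly factor Ndufaf5, had the smallest p. It read 7.7, 7.4, 7.4, 7.8 and 7.5 in HFD and 7.7, 7.6, 7.85, 7.6 and 7.9 in HFD+PE, a difference of 0.17 (SE 0.10; unadjusted p = 0.0935, limma adjusted p = 0.993). HFD+PE 3-4 and 6 lay above all HFD animals, and the other 3 within their range. Ndufa2, a subunit with a thioredoxin-like fold, read 10.5, 10.4, 10.6, 10.7 and 10.5 in HFD and 10.6, 10.6, 10.85, 10.5 and 10.6 in HFD+PE, a difference of 0.09 (SE 0.08; limma unadjusted p = 0.271) in which HFD+PE 3-4 was the one animal above the HFD range.

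On the lower side, Ndufa4 read 11.6, 11.5, 11.6, 11.7 and 11.8 in HFD and 11.3, 11.6, 11.65, 11.6 and 11.5 in HFD+PE, a difference of -0.11 (SE 0.08; limma unadjusted p = 0.208). Ndufa12, an accessory subunit of the peripheral arm, read 9.6, 9.6, 9.6, 9.5 and 9.8 in HFD and 9.3, 9.5, 9.7, 9.3 and 9.7 in HFD+PE, a difference of -0.12 (SE 0.09; limma unadjusted p = 0.216). HFD+PE 1 and 5 were below all HFD animals in Ndufa12, and HFD+PE 1 alone in Ndufa4.

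By role, 5 of 6 core subunits were below 0 (median -0.06), and 3 of 6 assembly factors were above 0 (median 0.02). Of the 28 accessory subunits, 15 were below 0, 11 above and 2 at 0 (median -0.02). Among these, 9 of 11 named Ndufb were below 0 (median -0.04). Above 0 were 6 of 12 named Ndufa or Ndufab (median 0.01) and 2 of 3 named Ndufs or Ndufv (median 0.09). All 42 intervals lay within 0.5 log2 units either way (89.9% of all genes), the farthest bounds being -0.48 for Ndufb8 and 0.37. The median of -0.03 was 0.02 without HFD+PE 1, 0.01 without HFD 6, 0.00 without HFD 5, and -0.08, -0.06 and -0.05 when HFD+PE 3-4, HFD 3 or HFD+PE 2 was left out, and 0.03 with arrays of the low control set only.

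Diet and extract together were read from HFD+PE against chow. In limma 0 of 42 genes passed (0.0% of all genes did), the smallest adjusted p being 0.529. An unadjusted p under 0.05 was found in 0 of 42, against 11.1% of all genes. Animals of the groups overlapped in each of the 42, where 1.41% of all genes had groups apart. The median difference was 0.02 against 0.01 over all genes, with 24 above 0, 15 below and 3 at 0 (51.1% of all genes above 0) and a range from -0.17 to 0.19.

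Ndufv3, an accessory subunit next to the flavoprotein core, had the smallest p. It read 11.2, 10.9, 11.35, 11.0 and 11.0 in chow, 11.15, 11.1, 11.1, 10.9 and 10.9 in HFD, and 10.8, 10.9, 11.0, 11.0 and 10.9 in HFD+PE. The difference of -0.17 (SE 0.09; unadjusted p = 0.0776, limma adjusted p = 0.529) came with chow 1 and chow 3-4 above all HFD+PE animals. A second, dimmer probe set of Ndufv3 read 6.63 ± 0.04 in chow and 6.77 ± 0.16 in HFD+PE, a difference of 0.14 in the other direction. Ndufa12 read 9.6, 9.6, 9.8, 9.7 and 9.6 in chow and differed by -0.16 (SE 0.09; unadjusted p = 0.105).

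On the higher side, Ndufaf1, an assembly factor of the membrane arm, read 5.9, 5.8, 6.1, 6.2 and 5.6 in chow, 6.05, 6.0, 6.0, 6.3 and 6.2 in HFD, and 6.2, 6.3, 6.05, 6.0 and 6.0 in HFD+PE. Its difference from chow was 0.19 (SE 0.11; limma unadjusted p = 0.0998) in both high fat groups, with chow 6 the lowest of the 15 animals. Ndufs4, a subunit of the peripheral arm whose loss is known to cause Leigh syndrome, read 8.9, 9.1, 8.9, 9.2 and 8.9 in chow, 9.05, 9.0, 9.1, 9.2 and 8.9 in HFD and 9.1, 9.1, 9.2, 9.3 and 9.0 in HFD+PE. It differed by 0.14 (SE 0.09; limma unadjusted p = 0.120), and chow 5 was at or above all but the highest HFD+PE animal.

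The role medians of this comparison were 0.02 for core subunits, 0.02 for accessory subunits and 0.07 for assembly factors. The interval lay within 0.5 log2 units for 41 of 42 genes (84.4% of all genes), and that of Ndufb8 reached -0.50. The median of 0.02 was 0.07 without HFD+PE 1, 0.05 without both HFD+PE 1 and chow 2, -0.02 without HFD+PE 3-4, 0.00 without chow 2 and -0.01 without chow 6, and 0.04 with arrays of the low control set only. A limma F test for any difference between the 3 groups called 0 of 42 genes (0.0% of all genes at an adjusted p under 0.05). At an unadjusted p under 0.05 it had 0 of 42, against 8.14% of all genes. The smallest F test p in the list was that of Ndufaf1 (unadjusted 0.163, adjusted 0.789).

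**Figure D3:**
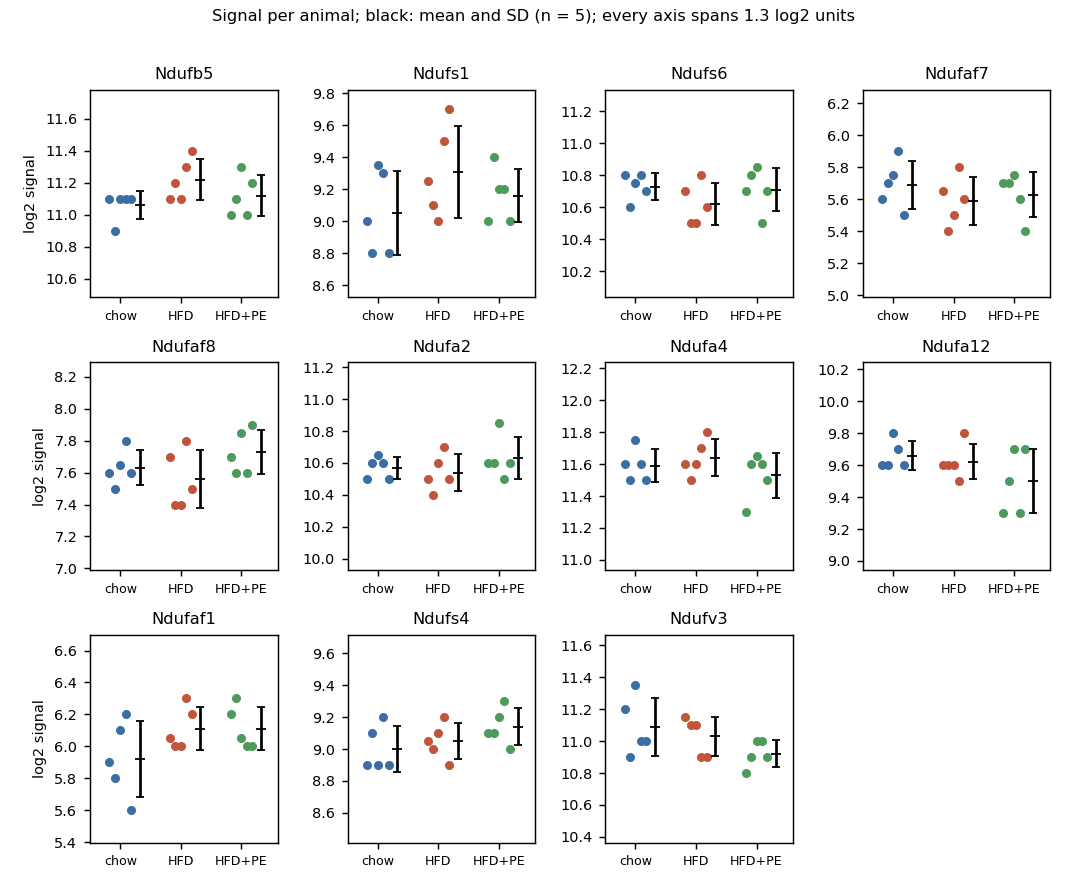
Log2 signal per animal (coloured points) in chow, HFD and HFD+PE for the 11 Nduf genes with the smallest p in each direction of the comparisons, with mean and SD in black (n = 5). Every panel spans the same 1.3 log2 units, and the groups overlap in each gene, as in Ndufs1 at 9.05 ± 0.26, 9.31 ± 0.29 and 9.16 ± 0.17.

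Other genes for building complex I carry other names, and 13 of a list of 21 were measured. In limma 0 of 13 passed in any comparison. Unadjusted p under 0.05 was reached by 2 of 13 against chow in each high fat group, the same 2 genes, where 7.65% of all genes reached it in HFD and 11.1% in HFD+PE. Nubpl, which delivers iron-sulfur clusters to the complex, stood at 7.13 ± 0.17 in chow, 7.37 ± 0.14 in HFD and 7.38 ± 0.08 in HFD+PE. Its difference was 0.24 (SE 0.09; unadjusted p = 0.0177, limma adjusted p = 0.572) for HFD and 0.25 (unadjusted p = 0.0141, adjusted 0.294) for HFD+PE. Lyrm2, an assembly factor of the NADH-oxidizing tip, stood at 8.43 ± 0.10, 8.72 ± 0.15 and 8.71 ± 0.33, with differences of 0.29 and 0.28 (SE 0.13; limma unadjusted p = 0.0371 and 0.0432). Both comparisons share the chow animals.

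The remaining 11 had no unadjusted p under 0.05. Of the assembly factors that work with Ndufaf1, Acad9 was at 8.98 ± 0.44, 9.17 ± 0.13 and 9.08 ± 0.19 in the 3 groups, Ecsit at 8.11 ± 0.11, 8.14 ± 0.15 and 8.12 ± 0.08, Tmem126b at 8.54 ± 0.17, 8.62 ± 0.15 and 8.66 ± 0.13, and Timmdc1 at 8.78 ± 0.04, 8.70 ± 0.10 and 8.86 ± 0.15. Timmdc1 had the smallest p of the list for HFD+PE against HFD (0.16, SE 0.08; limma unadjusted p = 0.0600). Dmac1, Tmem70, Foxred1 and Tmem186, which help to build the membrane arm or its parts, and Dmac2, Tmem126a and Aifm1 differed by -0.14 to 0.20 over the 3 comparisons. Core subunits from the mitochondrial genome were not analysed here.

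Complexes II to V, which take the electrons onward and make ATP, were read in the same fit from a list of 61 measured genes. Their medians were 0.00 for HFD against chow, -0.02 for HFD+PE against HFD and -0.01 for HFD+PE against chow, beside 0.05, -0.03 and 0.02 for the Nduf genes. In limma 0 of 61 passed in each comparison, and 0, 1 and 3 had an unadjusted p under 0.05, against 7.65%, 2.7% and 11.1% of all genes. The 1 was Atp5mf, a membrane subunit of ATP synthase (-0.15, SE 0.07; limma unadjusted p = 0.0394), and the 3 were Uqcc2, an assembly factor of complex III (-0.25, SE 0.10; limma unadjusted p = 0.0202), Cox6a1 of cytochrome c oxidase (-0.21, SE 0.09; unadjusted p = 0.0345) and, in the other direction, Uqcc1, also of complex III assembly (0.19, SE 0.09; unadjusted p = 0.0433). Genes for mitochondrial ribosomal proteins, 73 in number, had medians of 0.02, -0.01 and 0.00. A difference between the Nduf genes and these lists was not tested.

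Regulators of mitochondrial transcription and biogenesis included the factors whose motifs were searched above. Of 17 genes, 0 passed in limma, and 2, 1 and 6 had an unadjusted p under 0.05 in the 3 comparisons in the order above, against 7.65%, 2.7% and 11.1% of all genes. For HFD+PE against chow 15 of the 17 were above 0 (51.1% of all genes were), with a median of 0.16, and 5 of the 6 were higher. Ssbp1 had the smallest p for HFD against chow (0.26, SE 0.08, limma unadjusted p = 0.00571). It stood at 7.67 ± 0.07 in chow, 7.93 ± 0.15 in HFD and 7.89 ± 0.11 in HFD+PE. Yy1 stood at 9.26 ± 0.15 in chow, 9.46 ± 0.09 in HFD and 9.42 ± 0.08 in HFD+PE (0.20 for HFD against chow, SE 0.08, limma unadjusted p = 0.0249). Values of the other factors with a searched motif are not given here. Ppargc1b, a coactivator of respiratory genes, stood at 7.87 ± 0.37, 7.83 ± 0.13 and 7.44 ± 0.22 (-0.39 for HFD+PE against HFD, SE 0.15; unadjusted p = 0.0182). Pprc1, a coactivator of NRF-1, was at 6.05 ± 0.10, 6.24 ± 0.21 and 6.43 ± 0.29 (0.38 for HFD+PE against chow, SE 0.13; limma unadjusted p = 0.00844).

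Within each group the Nduf genes were high or low together from animal to animal. The mean over the 42 genes was 9.72 ± 0.10 in chow, 9.76 ± 0.09 in HFD and 9.74 ± 0.12 in HFD+PE. It was 9.75, 9.60, 9.83, 9.80 and 9.62 in the chow animals, 9.75, 9.64, 9.70, 9.85 and 9.86 in the HFD animals, and 9.55, 9.80, 9.88, 9.75 and 9.70 in the HFD+PE animals. The range inside each group was thus several times the difference of at most 0.04 between group means. In chow 2, 33 of 42 genes were below their group mean, in chow 6 there were 37, in HFD 3 also 37 and in HFD+PE 1 39, whereas in chow 3-4 36 genes and in HFD+PE 3-4 40 were above it. With each animal's mean deviation taken out, the median SD within groups fell from 0.147 to 0.108, and the SD was smaller in 35 of 42 genes; taking out a term fitted to the same genes lowers it by construction.

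The shifts were also read by role. In HFD+PE 1 the mean deviation from the group was -0.21 for core subunits, -0.20 for accessory subunits and -0.06 for assembly factors, and in HFD 6 it was 0.18, 0.11 and -0.01. In HFD 5 it was 0.11, 0.06 and 0.23, so that there the assembly factors were the highest. These differences between roles were not tested.

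Complexes II to V deviated in the same direction in the animals where the Nduf genes stood out. They deviated by -0.11 in chow 2, -0.12 in HFD 3, -0.14 in HFD+PE 1, 0.11 in chow 3-4 and 0.15 in HFD+PE 3-4, where the Nduf genes deviated by -0.12, -0.12, -0.18, 0.11 and 0.15. Mitochondrial ribosomal proteins deviated by -0.08, -0.04, -0.02, 0.10 and 0.06 in those animals; over the 15 animals their widest deviations were 0.14 in HFD 5, -0.10 in HFD 4 and 0.10 in chow 3-4. The mean of all genes deviated by no more than 0.02 in any animal. RMA brings whole arrays to a common scale, so that mean is held nearly constant by design and is no comparison for the lists. Deviations are taken from a mean of 5 animals and share their arrays, so they are given as a description.

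Signs of RNA quality moved with these shifts in part. Arrays carry probe sets for the 3′ and the 5′ end of Gapdh, and a larger difference between them goes with shorter RNA or labelled product. That difference was 2.6, 3.20, 2.15, 2.50 and 2.80 in the chow animals, 2.6, 3.20, 3.00, 3.10 and 2.10 in the HFD animals, and 3.40, 2.40, 2.75, 3.10 and 3.00 in the HFD+PE animals. In the chow group its highest values were those of chow 2 and 6, where the Nduf mean was lowest, and its lowest was that of chow 3-4, where the Nduf mean was highest. HFD 3, HFD 6 and HFD+PE 1 followed the same order, but HFD 5 had 3.10 with a high Nduf mean, and HFD+PE 3-4, with the highest Nduf mean of its group, had 2.75 where HFD+PE 2 had 2.40. The same difference for the beta-actin control was also highest in chow 2 and 6 of the chow group, at 4.1 and 3.7. In the HFD+PE group, however, it was highest in HFD+PE 3-4, at 4.05 against 4.0 in HFD+PE 1, and HFD 5 had 3.9. Both differences were on average lowest in chow and highest in HFD+PE, with the groups overlapping. The part of RNA quality in the shifts and in the group differences was not tested. With chow 2 and HFD+PE 1 left out, 0 of 42 genes passed in limma in each comparison, and the medians were 0.00, 0.02 and 0.05.

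**Figure D4:**
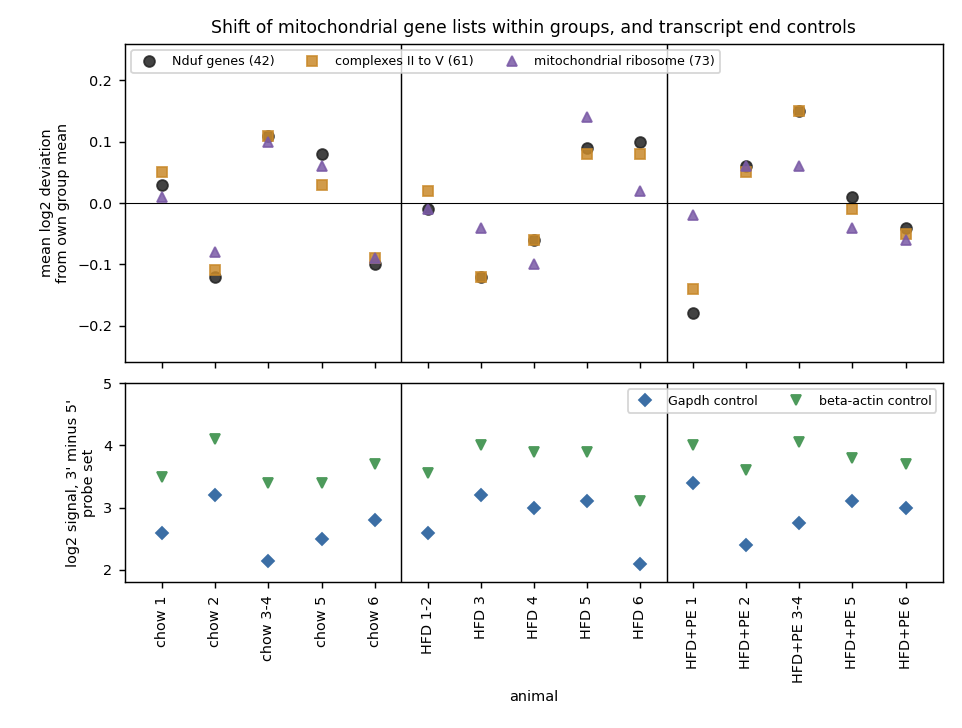
Top, mean deviation from the own group's mean (log2 units) of the 42 Nduf genes, the 61 genes of complexes II to V and the 73 mitochondrial ribosomal protein genes in each of the 15 animals; bottom, log2 signal of the 3′ probe set minus the 5′ probe set of the Gapdh and beta-actin controls. The Nduf genes and complexes II to V lie together in most animals, from -0.18 and -0.14 in HFD+PE 1 to 0.15 and 0.15 in HFD+PE 3-4.

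Markers of other liver cells were read in the same fit. All 9 measured macrophage and Kupffer cell markers were lower in HFD than in chow (median -0.53), 6 of them at an unadjusted p under 0.05 (7.65% of all genes) and 0 at an adjusted p under 0.05 in limma. For HFD+PE against chow 8 of 9 were lower (median -0.82), all 8 at an unadjusted p under 0.05 (11.1% of all genes) and 4 with the animals of the groups apart (1.41% of all genes), and again 0 passed. The mean of the 9 ranged from 8.30 to 9.20 in chow animals, 7.63 to 8.55 in HFD and 7.34 to 8.27 in HFD+PE, and in chow 2 it was 9.20. Of the 8 stellate cell and matrix markers, 7 were below 0 for HFD against chow (median -0.22) and 3 had an unadjusted p under 0.05; for HFD+PE against chow all 8 were below 0 (median -0.35) and 4 had one. Hepatocyte markers had medians of -0.02, 0.01 and -0.01 in the 3 comparisons. Of these 9, only Cyp2e1 had an unadjusted p under 0.05 against chow. Its difference was 0.40 in HFD (limma unadjusted p = 0.0117) and 0.63 in HFD+PE (limma unadjusted p = 0.000362). For HFD+PE against chow the animals were apart in 1 of the 9 (1.41% of all genes), and 0 passed. The part of all these markers in the Nduf values was not tested.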

How the data were processed

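Liver RNA of 18 samples was labelled and hybridized on Affymetrix rat arrays, per the labels' protocols. The authors processed the arrays with Affymetrix Expression Console and RMA, per the submitters' processing notes, which name no version. What they deposited is 1 log2 signal per array for each of 31099 probe sets, rounded to steps of 0.1. Of these, 57 control sets were left out of the tests, and 20826 of the others named 1 gene symbol, 436 several and 9780 none. A lookup by Entrez number reached 20758 of them and altered no symbol. The probe set with the highest mean over the 18 arrays stood for each of 14217 genes.

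The 3 pairs of arrays described in the text were averaged, which left 15 animals. The 3 diets were then set against each other in limma 3.58.1 (R 4.3.3): lmFit with 1 mean per group, eBayes, two-sided tests, and Benjamini-Hochberg adjustment over all genes within each comparison, called where the adjusted p was under 0.05. Nothing in the labels says more on how animals were sampled. The p-values set group differences against the spread between these 15 samples, and rest on the inference that the 3 pairs are single animals. The method was tested on simulated data with independent genes and planted differences larger than any among the Nduf genes. That test does not show what power there was at the size of the Nduf differences. The members, lists and pairing of arrays were chosen with earlier results of these data known. Genes shown by animal were the 2 with the smallest p per direction and comparison, the 2 brightest, the 2 dimmest and the 2 most variable; genes named as examples of a role, and Ndufb3 for its spread, were chosen after their values were seen. Lists are described by counts and medians only. Alternatives were other counts of animals, a replicate block, the hybridization control set, a filter at a mean of 5, other probe set rules, further normalization, another prior and each animal left out. By a check of correlations the replicate number gave no clear pairing of the samples, though that check cannot exclude a shared block. Deviations of same-numbered arrays correlated at -0.305 to 0.189 over 18 pairs, with 4 above 0.1.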

Additional observations from a re-analysis of the deposited data

Results flagged for a closer look

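Among the 126 groups of 5 animals of the 42 Nduf genes, 4 held an animal whose gap to the nearest other, divided by the range of the group, was above Dixon's critical value of 0.71 for 5 values. Chance flags about 1 in 20 groups, here 6.3. They were Ndufb5 in chow 2 (10.9, the other chow animals all at 11.1), Ndufb4 in chow 2 (10.9, the others at 11.2 to 11.3), Ndufa2 in HFD+PE 3-4 (10.85, the others at 10.5 to 10.6) and Ndufs7 in HFD 5 (10.9, the others all at 10.8). Values rounded to 0.1 make ties, and in Ndufs7 the gap was 1 rounding step.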

How the results depend on the processing

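Over 25 alternatives, 15 of which left out 1 animal each, 0 of 42 Nduf genes passed in limma in each comparison and in the F test. The smallest adjusted p of the list ranged from 0.498 to 0.895 for HFD against chow, 0.974 to 1 for HFD+PE against HFD and 0.248 to 0.734 for HFD+PE against chow, and 0 to 2 genes had an unadjusted p under 0.05. Medians ranged from 0.00 to 0.07, -0.08 to 0.03 and -0.02 to 0.07. For HFD against chow 21 of 25 were above 0 and 0 below. The other 2 comparisons took both signs, with 4 above and 17 below, and 22 above and 2 below. Leaving out an animal of the group outside a comparison, or another prior, cannot move that comparison's differences or median. The counts of signs, here and for single genes below, include these fixed outcomes. All medians stayed within 0.107, the SD between animals of the list's mean, of those reported. That limit is wider than the reported medians, so no direction is read from their signs. The differences of the 11 genes named for their p kept their sign in every alternative and passed in none, but for 7 of them the size moved by over 1.5 times in at least 1. With the mean of all probe sets of a gene, Ndufv3 went from -0.17 to -0.02 and Ndufaf7 from -0.10 to -0.02. Ndufaf7 was -0.05 without chow 5 or HFD 3 and -0.18 in the low control set. Ndufs1 went from 0.26 to 0.16 without HFD 6, Ndufaf1 from 0.19 to 0.11 without chow 6, and Ndufv3 to -0.10 without chow 3-4. For HFD+PE against HFD, Ndufa4 went from -0.11 to -0.05 without HFD+PE 1 and -0.07 without HFD 6, Ndufa2 from 0.09 to 0.04 without HFD+PE 3-4 and 0.05 without HFD 3, and Ndufa12 from -0.12 to -0.07 without HFD+PE 1 or 5; in the low control set Ndufa4 and Ndufa12 were both -0.07. With the replicate number as a block on 18 arrays, 0 of 42 Nduf genes passed (119 of all 14217 genes did for HFD+PE against chow) and the medians were 0.02, 0.00 and 0.03; 5 of 18 arrays correlated best with an array of their own number, and the block changed no call on the Nduf genes. With 18 arrays as separate animals, 145 of 14217 genes passed for HFD+PE against chow, none of them an Nduf gene. The rounding to 0.1 and the 5 animals per group limit the precision. The alternative without chow 2 and HFD+PE 1 was chosen after seeing the data.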
